A study of Mus musculus with 2 samples.

Results

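Small nuclear RNA (snRNA), small nucleolar RNA (snoRNA) and small Cajal body RNA (scaRNA) genes were examined in ribosome-depleted total RNA from the cytosolic fraction of mouse macrophages. A gene was taken when every one of its transcripts had the biotype snRNA, snoRNA or scaRNA and its expected count averaged at least 10 over the 2 libraries. This rule kept 45 of the 2941 genes of these biotypes in the annotation, namely 25 of 1383 snRNA, 14 of 1507 snoRNA and 6 of 51 scaRNA genes. Because the count chose them, their levels are a description and carry no test.

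The study holds 1 group of 2 biological replicates. The cells were bone marrow-derived macrophages of C57BL/6J mice, given lipid A (the part of bacterial endotoxin that activates TLR4) at 100 ng/ml for 12 h, kept without it for 12 h, and then given 100 ng/ml again for 75 min. Both libraries carry the same donor code and started from 1 µg of RNA, and no untreated or nuclear sample was analysed here, so the levels below cannot be tied to lipid A or to one compartment. The labels do not say whether the replicates were separate cultures or animals, and p-values below measure only the difference between 2 libraries. Differences are given as replicate 1 over replicate 2.

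As background, snRNAs are the RNA parts of the spliceosome: U1 pairs with the 5′ splice site of a pre-mRNA and U2 with its branch site. Their precursors leave the nucleus, receive a ring of Sm proteins in the cytoplasm with the help of the SMN complex, and return as ribonucleoproteins. Box C/D snoRNAs guide ribose methylation and box H/ACA snoRNAs guide pseudouridylation, mostly of ribosomal RNA, while U3 is needed for cleavage of the ribosomal precursor. The scaRNAs guide the same modifications on spliceosomal snRNAs in Cajal bodies, and most mammalian snoRNAs and scaRNAs are cut out of introns of host genes.

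Depth was 64187226 expected counts over annotated genes in replicate 1 and 49429893 in replicate 2. Macrophage markers were present in both libraries: all 8 listed genes, among them Lyz2, Cd68 and Csf1r, had at least 24.4 TPM (transcript level scaled by effective length and by the library's sum). Of 10 markers of other lineages only Kdr, an endothelial receptor, reached 1 TPM, with 2.34 TPM in replicate 1 and 2.12 TPM in replicate 2. The 10 summed to 2.44 TPM in replicate 1 and 2.55 TPM in replicate 2, and the defining genes Ly6g of neutrophils and Hbb-bs of red cells were at 0 in both. Effective lengths in the tables imply a mean fragment of 222 nt in replicate 1 and 231 nt in replicate 2. In both replicates 37 of the 45 genes were shorter than this fragment.

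Most genes of these biotypes had no reads assigned. Of the 2941 genes, 2848 had an expected count of 0 in both libraries and 48 had some count but fell short of the minimum. None of the 655 genes under 100 nt or the 1137 genes of 100 to 125 nt was kept, 5 of 867 genes of 126 to 149 nt were, 25 of 242 genes of 150 to 199 nt were, and 15 of 40 genes of at least 200 nt were. The kept genes ran from 126 nt (Snord22) to 414 nt (Scarna2), with a median of 191 nt against 108 nt for all genes of these biotypes. An effective length of 0, at which no TPM can be formed, was listed for 1923 of the 2941 genes in replicate 1. Of 867 genes of 126 to 149 nt the effective length was 0 for 131, and 33 had any count. Whether the genes without counts were present in the cells was not tested. The kept genes held 99.2% of the 4543 counts of these biotypes in replicate 1 and 98.9% of the 11865 counts in replicate 2.

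Just inside the minimum lay Gm26316, with 0 counts in replicate 1 and 22.7 in replicate 2, and Gm24924 and Gm26244, each with 22.8 and 0.33. Just outside it were Gm22973 (2 and 15 counts), Rnu12, the U12 snRNA of the minor spliceosome (4 and 10 counts), and Gm26447 (3.99 and 8.99 counts). In 11 of the 45 genes 1 replicate alone was under 10 counts, replicate 1 in 9 genes and replicate 2 in 2 genes.

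Together the 45 genes took 4509 expected counts in replicate 1 and 11730 in replicate 2, or 0.00702% and 0.0237% of all counts. The range over genes was wide. The lowest, median and highest levels were 0, 0.355 and 31.9 CPM (expected counts scaled to the library's sum over annotated genes) in replicate 1, and 0.00668, 1.76 and 80.0 CPM in replicate 2. Against depth alone, a count of 0 allows up to 3 counts, which is 0.0467 CPM in replicate 1 and 0.0607 CPM in replicate 2, for counting error only. The plot of levels by gene shows replicate 2 on the right of replicate 1 for 42 of 45 genes.

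**Figure D1:**
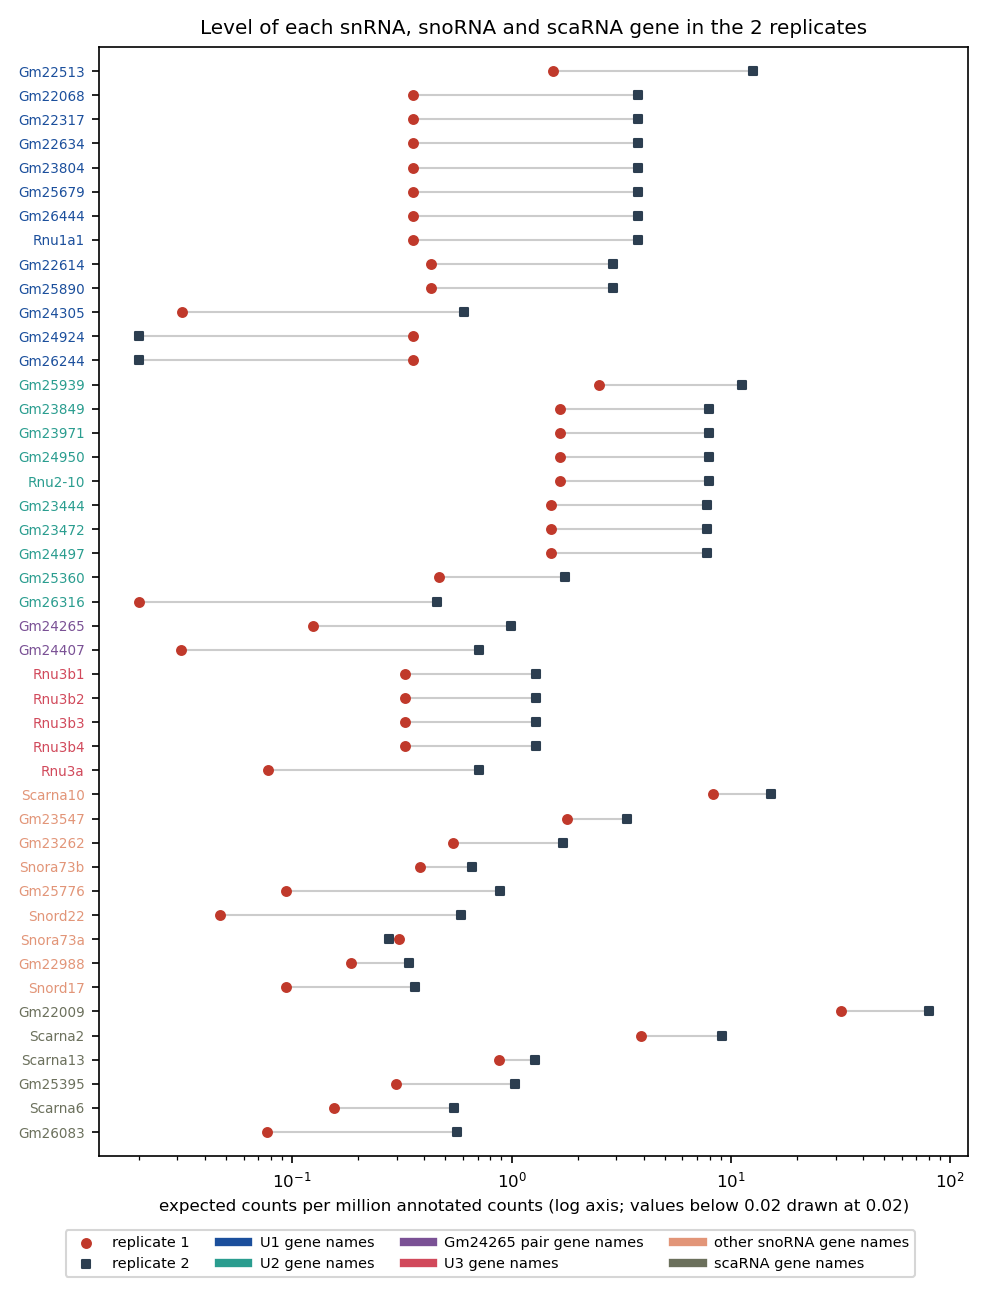
Level of each of the 45 genes in CPM (expected counts scaled to the library's sum) on a log axis, with replicate 1 as circles and replicate 2 as squares, 1 gene per row, grouped by the colour of the gene name. Gm22009 is the highest in both replicates (31.9 and 80.0 CPM), and only Gm24924, Gm26244 and Snora73a lie higher in replicate 1.

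The U1 genes were the largest group, with 13 genes at 95% identity or more to Rnu1a1, the annotated mouse U1a gene, on chr11:87422867-87423030 (mm10). Rnu1a1 and 6 others (Gm22068, Gm22317, Gm22634, Gm23804, Gm25679 and Gm26444) have 1 and the same sequence of 164 nt. The sequence is shown because its copies cannot be told apart by reads, beside the most abundant variant, Gm22513 (chr12:54696782-54696945), and the variant pair of chromosome 3, Gm22614 (chr3:96488729-96488893) and Gm25890. Sequences are the GENCODE M21 transcripts, read 5′ to 3′ with T for U. All genes shown lie on the plus strand of mm10, except Snora73b, Gm25776 and Gm22009, which lie on the minus strand. In Rnu1a1 capitals mark the 5′ end that pairs with splice sites (ACTTACCTG) and the core of the Sm-protein site (ATTTNTG), and in the others they mark bases that differ from Rnu1a1.
Rnu1a1: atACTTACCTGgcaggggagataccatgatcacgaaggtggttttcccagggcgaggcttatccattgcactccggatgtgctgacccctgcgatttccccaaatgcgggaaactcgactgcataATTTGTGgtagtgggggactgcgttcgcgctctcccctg
Gm22513: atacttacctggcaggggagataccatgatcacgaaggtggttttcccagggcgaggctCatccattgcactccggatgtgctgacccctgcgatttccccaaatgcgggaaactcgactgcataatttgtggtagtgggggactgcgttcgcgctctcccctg
Gm22614: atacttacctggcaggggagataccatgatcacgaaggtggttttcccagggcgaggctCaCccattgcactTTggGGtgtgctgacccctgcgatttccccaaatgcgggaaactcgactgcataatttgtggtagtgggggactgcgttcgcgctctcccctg

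The 7 identical U1 genes were each listed at 22.8 counts in replicate 1 and 185 in replicate 2, an even split of 159 and 1298 counts among them. No single value is a measurement of its own, and their sum was 2.48 CPM in replicate 1 and 26.3 CPM in replicate 2. Gm24924 and Gm26244, each 1 base away from this sequence, were also listed at 22.8 counts in replicate 1. In replicate 2 they were listed at 0.33 counts each, but their posterior mean counts were 93.3 and 132. The sum of the 7 thus depends in part on how reads were shared with these copies. The quantifier's own posterior spread for each of them was 83.0% to 95.6% of the posterior mean in replicate 1 and 79.6% to 94.8% in replicate 2. Gm22513, which differs at a single base (T60C, counted from the 5′ end), had 99 counts in replicate 1 and 624 in replicate 2, with a posterior spread of 0 and 0.0625% of its mean. The posterior spread left little doubt over its reads, and the variant was 8.37-fold lower in replicate 1 (95% counting interval 6.76 to 10.4). The pair Gm22614 and Gm25890, which carry T60C, T62C, C73T, C74T, A77G and 1 inserted base, had 27.5 counts each in replicate 1 and 143 each in replicate 2. Gm24305 (A26G) was low, with 2.02 counts in replicate 1 and 30.0 in replicate 2.

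Many of the U1 copies lie together. On chromosome 12, 7 of the 13 genes lie within 41.8 kb (54696782 to 54738622), and they were listed at 215 counts in replicate 1 and 1581 in replicate 2. Among these 7, Gm22317, Gm22634, Gm23804, Gm25679 and Gm26444 share their reads with the identical Rnu1a1 and Gm22068. These sums thus hold an even split of shared reads and cannot be given wholly to chromosome 12. Rnu1a1 and Gm22068 lie 4.01 kb apart, end to end, inside introns of Tex14 on chromosome 11. Gm22614 and Gm25890 lie within 2.34 kb on chromosome 3, on opposite strands. The motif ACTTACCTG, searched on the transcript strand, was in 13 of 13 of these genes, in 0 of the other 32 kept genes and in 1.87% of all 2941 genes of these biotypes.

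The U2 genes numbered 10, all of 191 nt and at least 97.9% identical to Rnu2-10 (chr11:101658238-101658428), the annotated U2 gene. They are shown by Rnu2-10, whose sequence 4 genes share, and by Gm25939 (chr1:72255008-72255198), the most abundant of the group. Capitals in Rnu2-10 mark the element that pairs with the branch site (GTAGTA) and the core of the Sm-protein site (ATTTNTG), and in Gm25939 they mark bases that differ from Rnu2-10.
Rnu2-10: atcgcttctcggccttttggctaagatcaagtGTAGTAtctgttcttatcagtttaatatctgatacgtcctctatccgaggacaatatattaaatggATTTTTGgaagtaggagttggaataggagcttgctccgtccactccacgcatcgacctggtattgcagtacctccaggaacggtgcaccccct
Gm25939: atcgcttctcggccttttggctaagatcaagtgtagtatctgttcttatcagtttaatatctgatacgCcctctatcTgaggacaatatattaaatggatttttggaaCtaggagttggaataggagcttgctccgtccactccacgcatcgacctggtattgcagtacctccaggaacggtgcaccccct

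Gm25939 (T69C, C78T and G109C) had 160 counts in replicate 1 and 558 in replicate 2. Rnu2-10, Gm23971, Gm23849 and Gm24950, the 4 identical genes, had 107 counts each in replicate 1 and 392.1 each in replicate 2. Their sum was 6.67 CPM in replicate 1 and 31.7 CPM in replicate 2, the largest of any single snRNA sequence here. Gm24497, Gm23472 and Gm23444 share G109C and had 96.7 counts each in replicate 1 and 385 each in replicate 2. Gm23472 and Gm23444 are identical but lie on chromosomes 1 and 11, so the files cannot say which locus was transcribed. Gm25360 (C78T, A95G, G109C and C154T) had 30 counts in replicate 1 and 87 in replicate 2, and it was 3.85-fold lower in replicate 1 (95% counting interval 2.51 to 6.04). Gm26316 (C170T) had no count in replicate 1 and 22.7 in replicate 2, which with 3 counts in place of 0 is 10.02-fold lower in replicate 1. The exact 95% counting interval of the fold starts at 7.63. The read-based table, a second quantification of these libraries, gave it 2.89 counts in replicate 1 and 33.1 in replicate 2.

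Across the 10 U2 genes the 4 on chromosome 1 lie within 29.0 kb and were listed at 383 counts in replicate 1 and 1414 in replicate 2. Among these 4, Gm23472 shares its reads with the identical Gm23444 on another chromosome, so these sums cannot be given wholly to chromosome 1. Gm24497, Gm23472 and Gm25939 lie in introns of the long noncoding gene D230017M19Rik, which had 3 counts in replicate 1 and 1 in replicate 2. GTAGTA was in all 10 genes, in 1 of the other 35 kept genes and in 2.62% of the 2941 genes of these biotypes.

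The remaining snRNA genes were Gm24265 (chr5:115489459-115489599) and Gm24407, 141 nt each and 98.6% identical (G88A and C99A in Gm24407), which the annotation gives no other name. They lie within 0.936 kb of each other on chromosome 5. Gm24265 is shown as the shortest snRNA that was kept, with the core of an Sm-protein site (ATTTNTG) in capitals.
Gm24265: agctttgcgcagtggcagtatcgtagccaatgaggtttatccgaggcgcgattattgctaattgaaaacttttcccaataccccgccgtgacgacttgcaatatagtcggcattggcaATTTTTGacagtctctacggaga

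Gm24265 had 8 counts in replicate 1 and 49 in replicate 2. Gm24407 had 2 counts in replicate 1 and 35 in replicate 2, 23.2-fold lower in replicate 1 with a wide counting interval of 5.97 to 199.3. In the read-based table it had 11 and 58.4 counts, a 6.36-fold lower CPM in replicate 1. ATTTNTG was in all 25 kept snRNA genes, in 0 of the 20 kept snoRNA and scaRNA genes, and in 20.5% of all 1383 snRNA genes.

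The U3 genes were Rnu3b1, Rnu3b2, Rnu3b3 and Rnu3b4, identical copies of 216 nt inside Tex14 introns (chr11:87443237-87471583), and Rnu3a (chr10:40258467-40258679) of 213 nt. The sequence of Rnu3b1 is shown with its C box (TGATGA) and every CTGA, the letters of a D box, in capitals.
Rnu3b1: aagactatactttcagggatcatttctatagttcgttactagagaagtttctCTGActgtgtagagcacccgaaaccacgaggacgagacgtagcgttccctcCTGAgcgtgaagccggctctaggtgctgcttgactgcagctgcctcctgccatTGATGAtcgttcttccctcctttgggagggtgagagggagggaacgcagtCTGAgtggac

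Each Rnu3b gene was listed at 21 counts in replicate 1 and 63.6 in replicate 2, and their sum was 1.31 CPM in replicate 1 and 5.15 CPM in replicate 2. Rnu3a had 5 counts in replicate 1 and 35 in replicate 2. Tex14 itself, a gene of germ-cell division, had 11 counts in replicate 1 and 22 in replicate 2, fewer than the U3 copies within it. In Rnu3b1 the C box lay toward the 3′ end, starting at base 157.

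Among the other 9 snoRNA genes, Scarna10 (a guide RNA of Cajal bodies by name, filed as snoRNA) led with 533 counts in replicate 1 and 751 in replicate 2. Gm23547 in an exon of Phb2 had 115 and 166 counts, and Gm23262 in an exon of Eif4g2 had 34.8 and 84.7, replicate 1 given before replicate 2. Snora73b and Snora73a, H/ACA RNAs (U17) whose yeast counterpart acts in cleavage of the ribosomal precursor, lie in the Rcc1 and Snhg3 locus. Snora73b had 24.6 counts in replicate 1 and 32.6 in replicate 2, and Snora73a had 19.6 and 13.7. Neither was called in the test below. Gm25776, in a Gtf2a1 intron, had 6 counts in replicate 1 and 44 in replicate 2, and Snord22, in an exon of Snhg1, had 3 and 29.0. Gm22988 had 11.9 counts in replicate 1 and 16.9 in replicate 2, and Snord17 had 6 and 18.

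The 3 snoRNAs that span the even and the uneven end of this group are shown with the capitals marking ACA before the last 3 bases (ACANNN) in Snora73b (chr4:132352322-132352526) and Gm25776 (chr12:91573430-91573572), and CTGA in Snord22 (chr19:8725866-8725991).
Snora73b: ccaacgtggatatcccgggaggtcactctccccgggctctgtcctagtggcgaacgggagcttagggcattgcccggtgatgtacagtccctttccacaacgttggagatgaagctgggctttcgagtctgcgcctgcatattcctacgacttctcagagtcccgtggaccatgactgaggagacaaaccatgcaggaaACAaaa
Gm25776: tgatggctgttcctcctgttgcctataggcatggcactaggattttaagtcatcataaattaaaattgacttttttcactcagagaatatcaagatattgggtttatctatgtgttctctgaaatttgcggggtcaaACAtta
Snord22: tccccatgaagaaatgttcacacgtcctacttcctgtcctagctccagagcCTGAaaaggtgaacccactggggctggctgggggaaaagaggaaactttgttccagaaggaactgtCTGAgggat

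The scaRNA biotype had 6 kept genes and the highest single level. Gm22009 (chr3:69085105-69085447), of 343 nt in an intron of the importin gene Kpna4, had 2047 counts in replicate 1 and 3952 in replicate 2, which was 31.9 and 80.0 CPM. Scarna2, in no host gene, had 250 counts in replicate 1 and 451 in replicate 2. Scarna13, in an intron of Snhg10, had 56 and 63 counts, the most even of the 6. Gm25395 and Scarna6, both in introns of the autophagy gene Atg16l1, had 19 and 10 counts in replicate 1 and 51 and 27 in replicate 2. Gm26083, in an exon of Snhg20, had 4.93 counts in replicate 1 and 27.8 in replicate 2.

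The ends of Gm22009 (bases 1 to 60 and 284 to 343) and the whole of Scarna6 (chr1:87784556-87784820) show a layout that 6 genes share. Capitals mark TGATGA and CTGA.
Gm22009 start: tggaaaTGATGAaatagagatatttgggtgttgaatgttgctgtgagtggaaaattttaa
Gm22009 end: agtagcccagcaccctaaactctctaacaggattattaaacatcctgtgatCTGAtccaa
Scarna6: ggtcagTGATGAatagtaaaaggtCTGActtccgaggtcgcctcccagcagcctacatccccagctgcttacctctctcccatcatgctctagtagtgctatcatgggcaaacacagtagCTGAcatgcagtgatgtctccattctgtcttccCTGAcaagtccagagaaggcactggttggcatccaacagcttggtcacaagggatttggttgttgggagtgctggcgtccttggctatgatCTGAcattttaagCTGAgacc

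In Gm22009, Scarna10, Gm23547, Gm25395, Scarna6 and Snord17 the C box began within 10 bases of the 5′ end, and in all 6 a CTGA ended within 10 bases of the 3′ end. TGATGA was in 12 of the 20 kept snoRNA and scaRNA genes, 5 of them U3 genes, and in 14.9% of all 2941 genes. By biotype it was in 26.1% of all snoRNA and 39.2% of all scaRNA genes. ACANNN at the 3′ end was in 6 others, Snora73a, Snora73b, Gm25776, Gm22988, Scarna13 and Gm26083, and in 10.7% of all 2941 genes. Gm23262 and Snord22 had neither set of letters. CTGA is short and was in 57.5% of all 2941 genes, so a match anywhere says little, and no motif match is a measured binding site.

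Summed over genes, the groups differed in level and in their order between replicates. In replicate 1 the scaRNA genes summed to 37.2 CPM, U2 to 14.1, the other snoRNA genes to 11.7, U1 to 5.62, U3 to 1.39 and the Gm24265 pair to 0.156. In replicate 2 the sums were 92.5, 68.6, 23.4, 45.3, 5.86 and 1.70 CPM in the same order of groups. U1 was thus below the other snoRNA genes in replicate 1 and above them in replicate 2. By biotype, means were 67.7 ± 67.6 CPM for snRNA, 21.2 ± 11.4 for snoRNA and 64.8 ± 39.1 for scaRNA genes (SD, n = 2), so that for snRNA the spread between replicates was as large as the mean. The sum was lower in replicate 1 by 8.23-fold for U1, 4.95-fold for U2, 11.1-fold for the Gm24265 pair, 4.32-fold for U3, 2.54-fold for scaRNA and 2.04-fold for the other snoRNA genes after TMM scaling. In read-based CPM the pair was 5.74-fold lower, from 33 counts in replicate 1 and 158 in replicate 2, which is less than the 7.73-fold of U1. Both genes of the pair had under 10 counts in replicate 1 and reached the minimum through replicate 2. Their lower level in replicate 1 thus follows in part from how they were chosen.

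**Figure D2:**
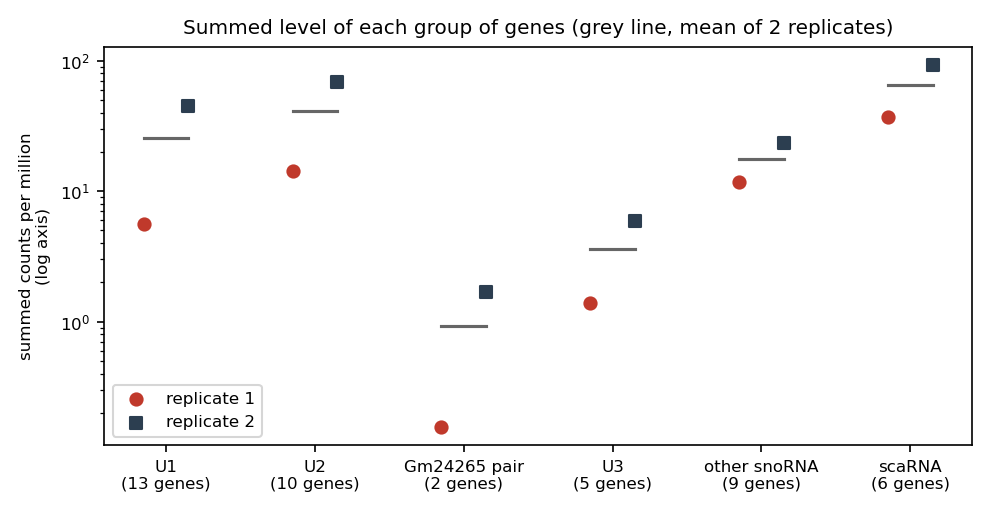
Summed CPM of each group of genes on a log axis, replicate 1 as circles, replicate 2 as squares, with a grey line at their mean. Replicate 1 lies below replicate 2 in all 6 groups, with the Gm24265 pair at 0.156 and 1.70 CPM and U1 at 5.62 and 45.3 CPM.

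The difference between the libraries was tested over all 13298 annotated genes with a mean count of at least 10, by edgeR's two-sided exact binomial test on rounded counts with TMM scaling, Benjamini-Hochberg adjustment at 0.05 and a 2-fold minimum. This test compares 2 libraries and holds counting error only. Of all genes, 429 (3.23%) were lower in replicate 1 and 310 (2.33%) were higher. Of the 45 genes, 37 were lower in replicate 1 and 2 were higher. The median log2 ratio was -2.28 over the 45 genes and 0.01 over all genes tested. Of the 34 genes with at least 10 counts in both replicates, which did not enter through 1 library alone, 28 were lower, 0 were higher, and the median log2 ratio was -2.24. Allowing a biological coefficient of variation of 0.2 in edgeR's exact test left 31 of the 45 genes lower in replicate 1 and 2 higher, against 92 (0.692%) and 45 (0.338%) of all genes.

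The genes are not 45 separate observations, because identical copies share their reads. With counts summed over identical copies, an alternative added after the data were seen, the 45 genes became 31 distinct sequences, of which 23 were lower in replicate 1 and 2 were higher. Of all 13284 genes or summed sequences tested this way, 416 were lower and 310 were higher. Restricted to the 20 genes whose posterior spread was under 10% of the mean in both replicates, 14 were lower in replicate 1, with a median log2 ratio of -1.80. Among these 14, Gm24265, Gm24407, Gm25776, Gm26083, Snord22 and Snord17 had under 10 counts in replicate 1. They reached the mean-count minimum through replicate 2, so their calls follow in part from how they were chosen. Without this restriction, 3.23% of all 13298 tested genes were lower. In bulk RNA, fewer molecules per cell and fewer cells or nuclei that carry them cannot be told apart.

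**Figure D3:**
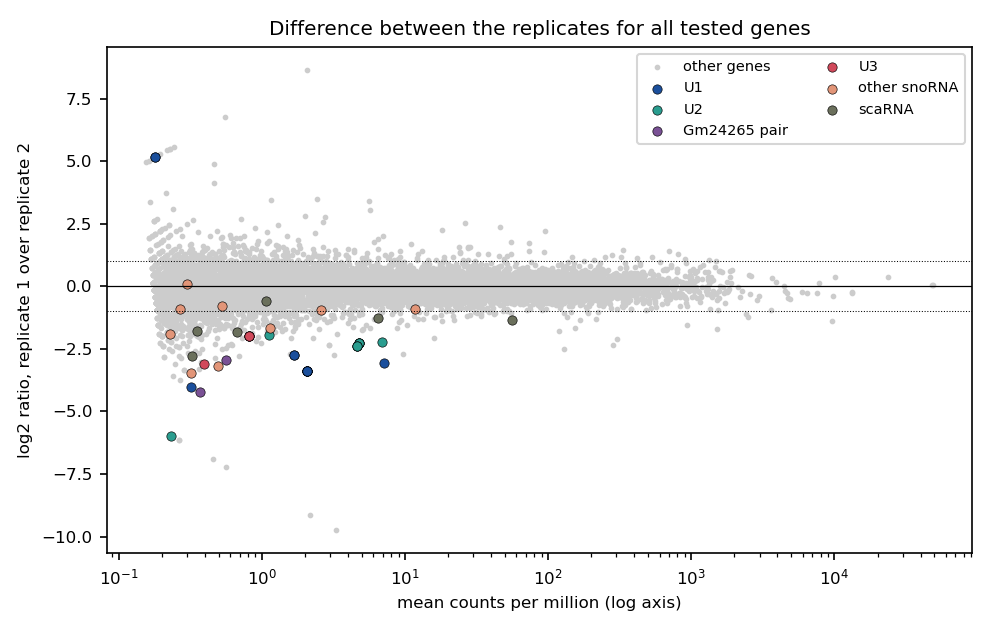
Log2 ratio of replicate 1 over replicate 2 against mean CPM (log axis) for all 13298 tested genes, with the 45 small RNA genes coloured by group, a line at 0 and dotted lines at 2-fold. The coloured points lie mostly below the lower dotted line, at a median of -2.28, while the grey cloud centres on 0.01; several identical copies share 1 point.

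By role, all 10 U2 genes, both genes of the Gm24265 pair, all 5 U3 genes and 11 of 13 U1 genes were lower in replicate 1, as were 5 of 6 scaRNA and 4 of 9 other snoRNA genes. With the coefficient of variation of 0.2, every snRNA and U3 call of this list held, while 1 of 6 scaRNA and 2 of 9 other snoRNA genes passed. The scaRNA gene was Gm26083 and the other snoRNA genes were Gm25776 and Snord22, each under 10 counts in replicate 1. No scaRNA or other snoRNA gene with at least 10 counts in both replicates passed. The 9 genes under 10 counts in replicate 1, both of the Gm24265 pair among them, reached the mean-count minimum through replicate 2. Their lower calls follow in part from how they were chosen. Among genes whose posterior spread was under 1% of the mean in both replicates, Gm22513 (U1) had a log2 ratio of -3.06 (edgeR's exact binomial test, adjusted p = 4.8e-128), Gm25939 (U2) of -2.21 (adjusted p = 5.8e-79) and Gm22009 (scaRNA) of -1.36 (adjusted p = 4.9e-277). With the coefficient of variation of 0.2, Gm22513 and Gm25939 were still called, but Gm22009 was not (edgeR's exact test, adjusted p = 0.093). Among genes lower in replicate 1 with counts in both libraries, the largest ratio belonged to Gm24407, at -4.24, followed by Gm24305 at -4.02 (19.7-fold lower, counting interval 5.05 to 172) and Snord22 at -3.48. The last was 12.8-fold lower in replicate 1, with a counting interval of 3.98 to 65.8. With 2 to 3 counts in replicate 1, these 3 genes reached the mean-count minimum through replicate 2 alone, so a large fold follows from how they were chosen.

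In all, 6 genes did not pass. Scarna10 (log2 ratio -0.90) and Gm23547 (-0.94) fell short of the 2-fold minimum, with adjusted p = 7.2e-28 and 2.4e-07 in the exact binomial test. Snora73b (-0.80), Gm22988 (-0.89) and Scarna13 (-0.58) had adjusted p of 0.06, 0.15 and 0.058 in the same exact test, and Snora73a was at 0.09 with 0.91. A p above the threshold does not show that these genes were equal, and the counting interval of the fold for Gm22988, 0.846 to 4.31, includes the folds of Gm23262 (3.23) and Snord17 (3.98), which were called.

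The 2 genes higher in replicate 1 were Gm24924 and Gm26244, U1 copies with 1 substitution each (C153T and G152C) in introns of Ss18 and Rock1. Each was listed at 22.8 counts in replicate 1, the value of the 7 identical U1 genes, and at 0.33 in replicate 2, and with 3 counts put in place of the near-zero value this is a difference of 5.72-fold, replicate 1 being higher, without the counting error of the 22.8 counts. The other columns of the same data gave another picture. The posterior mean count was 24.1 in replicate 1 and 93.3 in replicate 2 for Gm24924, and 22.9 and 132 for Gm26244, each with a posterior SD between 77.2% and 90.4% of the mean. The read-based table gave both genes 0 counts in replicate 1 and 0.0193 in replicate 2. With posterior mean counts in place of expected counts, 0 of the 45 genes were higher in replicate 1 and 39 were lower. Of all 13344 genes tested this way, 300 were higher and 434 lower. With read-based counts 0 of 42 were higher and 36 lower, against 366 and 723 of all 14929 genes tested.

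Other RNAs known from the nucleus differed between the libraries in the same direction. Malat1, an RNA of nuclear speckles, had 46801 counts in replicate 1 and 114091 in replicate 2 (log2 ratio -1.69). Neat1, the scaffold of paraspeckles, had 3449 and 9078 (-1.80), and Rn7sk, which holds the elongation factor P-TEFb inactive, had 342987 and 679002 (-1.39). Rmrp, the RNA of ribonuclease MRP, had 31047 and 68182 at its ribozyme entry (-1.54), while an overlapping entry of the same symbol had 6017 and 23240, and Terc, the telomerase RNA, had 14 and 36 (-1.74). Not all structured RNAs did so: Rpph1, the RNA of nuclear ribonuclease P, had 376665 and 342312 counts (-0.27), and the cytoplasmic Rn7s1, of the signal recognition particle, had a log2 ratio of 0.04. Except for Malat1 and Neat1 these were picked with their values known, and the part of nuclear RNA in the result was not tested. Some cell markers also differed: Adgre1 of macrophages had 358 TPM in replicate 1 and 706 TPM in replicate 2, while the progenitor gene Flt3 had 3 and 26 counts and the platelet gene Ppbp 4 and 19. These were the called markers among 8 of macrophages and 10 of other lineages. All 8 had enough counts for the binomial test, against 3 of the 10. Of all tested genes, 3.23% were called lower and 2.33% higher in replicate 1. The log2 ratios of the 8 macrophage markers ran from -1.10 (Adgre1) to 0.49 (Cd14), with a median of -0.33. The part of these markers was not tested either. Flt3 and Ppbp were at 0.24 TPM or less and reached the mean-count minimum through replicate 2, so their calls follow in part from that filter. With a coefficient of variation of 0.2, Flt3 was still called, but Adgre1 and Ppbp were not.

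Among other tested genes in the length range of the 45, more were higher than lower in replicate 1. Of 149 other tested genes in the same range of length, up to 414 nt, 8 (5.37%) were lower in replicate 1 and 20 (13.4%) were higher, with a median log2 ratio of 0.33. For 13104 longer genes the median was 0.00. The 149 genes were not matched to the 45 in length within this range, and the part of length was not tested. Replicate 1 also had the deeper library, and TMM, DESeq2 size factors and unscaled totals gave 37 lower and 2 higher of the 45 genes alike. Of all 13298 genes these scalings gave 395 to 429 lower and 310 to 327 higher. The part of depth was not tested.

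Of the 45 genes, 26 lay within another gene on the same strand, 7 of them in an exon and 19 in introns only, and 19 lay in none. The groups differed in this: 17 of 25 snRNA genes had no such host, against 1 of 14 snoRNA and 1 of 6 scaRNA genes. Among the 19 genes without a host, 19 were lower in replicate 1 (median log2 ratio -3.06). The same held for 15 of 19 intronic genes (-1.99) and 3 of 7 exonic genes (-0.94). Of all 13298 tested genes, 3.23% were lower. Genes under 10 counts in replicate 1 lie in each class, and their calls follow in part from how they were chosen. Identical copies that share their reads lie among both the intronic genes and those without a host. These reads cannot be given to either class. Intronic Rnu1a1 and Gm22068 are identical to Gm22317 without a host (each -3.39), Gm23849 to Gm23971 (-2.28) and Gm23472 to Gm23444 (-2.39). Copies are counted singly, so the genes are not separate observations, and the difference between the classes was not tested. Reads of exonic genes can also come from the host message, whose part was not tested.

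For 23 of the 26 genes the host had a mean count of at least 10. The small RNA ratio was below the host ratio in 20 of these 23 genes, and the 17 distinct hosts had a median log2 ratio of 0.0046. The 23 genes are not separate observations. Those in Tex14 are the identical Rnu3b genes and the identical Rnu1a1 and Gm22068. Rnu1a1 and Gm22068 also share their reads with identical U1 genes outside Tex14, so these reads cannot be given to this host. Gm23849, in an Rdm1 intron, likewise shares its reads with identical U2 genes outside Rdm1. Gm22009 was at -1.36 while Kpna4 was at 0.07, with 7299 counts in replicate 1 and 5255 in replicate 2. Gm25776 was at -3.18 while Gtf2a1 was at 0.10, and Snord22 at -3.48 while Snhg1 was at -0.18. Gm25776, Snord22, Snord17 and Gm26083, all among the 20, had under 10 counts in replicate 1. They reached the mean-count minimum through replicate 2, so their low ratios follow in part from how they were chosen. Scarna6 and Gm25395 were at -1.80 and -1.81 while Atg16l1 was at -0.24. Exceptions were Snora73a, at 0.09 beside Rcc1 at -0.32, and the pair Gm24924 and Gm26244. Tex14 and Snhg20 themselves were lower in replicate 1, at -1.38 and -1.72, from 11 and 22 counts and from 15.1 and 38.2.

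**Figure D4:**
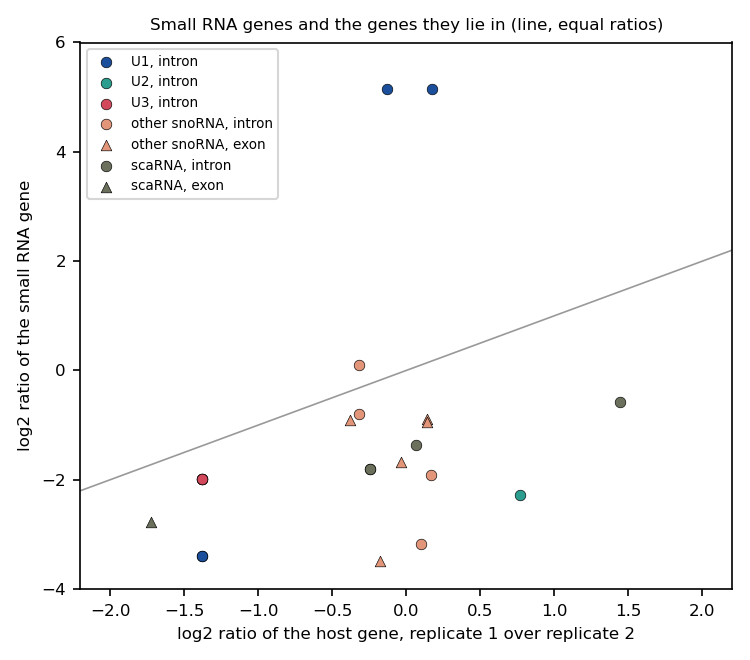
Log2 ratio of replicate 1 over replicate 2 of 23 small RNA genes (vertical) against that of the gene each lies in (horizontal), with circles for introns, triangles for exons and a line where both would be equal. Each gene is set against its host with the most counts, and 20 of 23 points lie below the line, with Gm24924 and Gm26244 at 5.15 far above it; 6 genes in Tex14 share its value of -1.38.

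Both quantifications of the same reads could be set side by side for every gene. The read-based count was within 2-fold of the alignment-based count in both replicates for 34 of the 45 genes, and it was the higher one for 38 genes in replicate 1 and 40 in replicate 2. The median ratio, read-based over alignment-based, was 1.25 in replicate 1 and 1.15 in replicate 2. Over all genes the read-based total was 1.14 and 1.24 times the alignment-based one. Among long genes with a unique sequence, Gm22009 had ratios of 1.01 and 1.02, and Scarna10 1.04 in both.

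The 11 others were the 5 U3 genes, the Gm24265 pair, Snord17, Gm24924, Gm26244 and Gm26316. Gm24407 had 11 read-based counts against 2 in replicate 1 (ratio 5.50), Gm24265 22 against 8 (2.75) and Snord17 16 against 6 (2.67). The Rnu3b genes had 42.0 read-based counts each in replicate 1 and 144 in replicate 2, ratios of 2.00 and 2.26. Rnu3a had 5 and 35 alignment-based counts but 0 read-based counts, whereas an overlapping annotation entry of the same symbol, 214 nt long, had 16.2 and 89.7 read-based counts and 0 alignment-based ones. Rnu12, which just missed the minimum, had 32 read-based counts in replicate 1 and 89.7 in replicate 2.

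The read-based table also listed genes that the alignment-based table left at 0. By the same rule it kept 56 genes, of which 14 were outside the 45. The most abundant of these was Gm25047, an snRNA gene of 104 nt, with 213 read-based counts in replicate 1 and 113 in replicate 2, and 0 alignment-based counts. Its read-based count was higher in replicate 1. Below 126 nt the read-based counts summed to 105 and 148 for genes under 100 nt, and to 410 and 404 for genes of 100 to 125 nt, in replicates 1 and 2. Gm25047 is part of the sums for 100 to 125 nt, and none of these sums is scaled for depth.

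**Figure D5:**
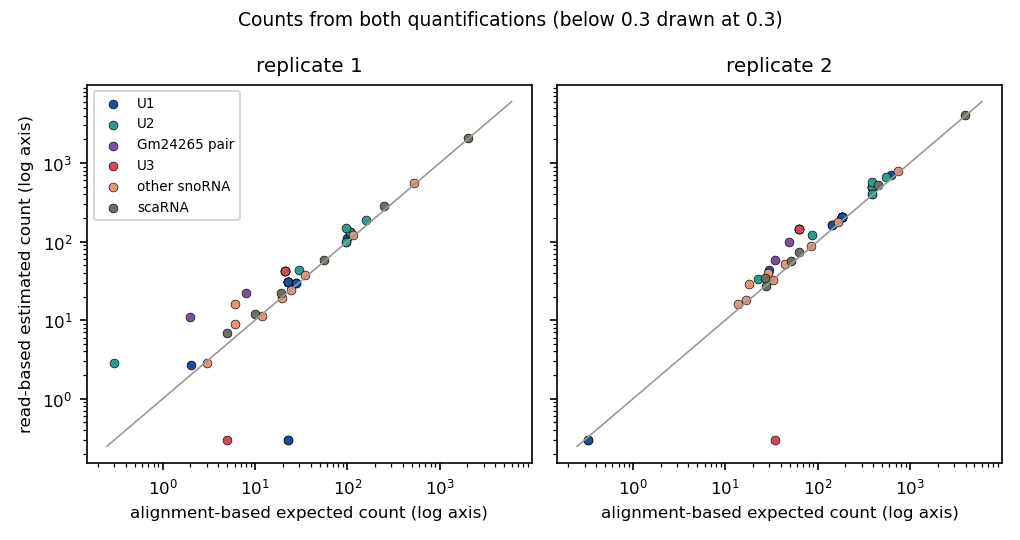
Read-based against alignment-based counts of the 45 genes on log axes, replicate 1 on the left and replicate 2 on the right, with a line at equality. Most points lie just above the line (median ratios 1.25 and 1.15), and Rnu3a, Gm24924 and Gm26244 fall to the lower edge in replicate 1, where values near 0 are drawn.

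TPM gave these genes far more weight than counts. At least 1 TPM in both replicates was reached by 41 of the 45 genes, but at least 1 CPM in both by 13. The exceptions by TPM were Gm26316, Gm24924, Gm26244 and Snord22, whose effective length of 0 left it at 0 TPM in both replicates despite 3 and 29.0 counts. The genes held 0.135% of all TPM in replicate 1 and 0.720% in replicate 2. Gm24265 had 30.6 TPM in replicate 1 from 8 counts over an effective length of 2.33 nt, while Scarna2 had 11.4 TPM from 250 counts over 195 nt. Of the 45 genes 30 had an effective length under 20 nt in replicate 1. Per kilobase of full length, Gm22009 was the highest in both replicates, at 93.0 and 233 CPM per kb, followed by Scarna10 at 25.6 in replicate 1 and Gm22513 at 77.0 in replicate 2. By TPM, Gm22513 (972) stood above Gm22009 (355) in replicate 2, and below it in replicate 1 (126 against 142).

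The messages of proteins that build these particles did not differ in the same way. The 5 lists, of 91 genes, covered Sm and LSm proteins, proteins specific to single snRNPs, snRNP assembly and transport, snRNA transcription and 3′ processing, and snoRNP proteins. Of the 91 genes 85 had at least 1 TPM in both replicates, and 0 of 91 were called higher or lower by the rule above in either edgeR test. Over all genes the binomial test called 3.23% lower and 2.33% higher, and the exact test at 0.2 called 0.692% and 0.338%. Without the 2-fold minimum, 46 of 91 had an adjusted p under 0.05 in the exact binomial test and 48 an unadjusted one. Such an adjusted p was common: of all 13298 tested genes, 3736 were lower and 3707 higher in replicate 1 this way. Their log2 ratios ran from -0.65 (Ints1, the scaffold of Integrator) to 0.49 (Ints12), with a median of -0.01. Snrpb, a core Sm protein, had 24.2 TPM in replicate 1 and 22.7 in replicate 2, Snrpd1 had 20.99 and 16.3, and Snrpe had 29.8 and 27.2. Snrnp70, the protein that binds U1, had 23.1 TPM in both replicates. Smn1, of the assembly complex, had 6.06 and 4.73 TPM, and Phax, the export adaptor of snRNAs, had 6.72 and 5.42. Fbl, the methylase of box C/D particles, had 10.04 and 9.04 TPM, and Dkc1, the pseudouridine synthase of H/ACA particles, had 1.27 and 1.16.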

How the data were processed

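Total RNA of the cytosolic fraction was sequenced after ribosomal depletion in 2 libraries (size range 250 to 400, per the labels). The authors deposited a gene table and a transcript table for each, on mm10 with GENCODE M21, per the text deposited beside them. Aligner, quantifiers and strandedness: not given in the sources used here.

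Per the file headers, the deposited expected counts are estimates without depth scaling, and posterior mean counts stand beside them. The deposited TPM are scaled by effective length to a fixed total, and the deposited FPKM by effective length and mapped fragments, per the file headers. Short RNAs have small effective lengths, which inflates both.

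Of 81881 features, 26345 carry no gene annotation (such as spike-ins), and neither tests nor library sizes used them. Read-based transcript counts were summed per gene. Counts were rounded and tested with edgeR 4.0.16 in R 4.3.3 (binomial test; exact test at a coefficient of variation of 0.1 or 0.2), and DESeq2 1.42.0 gave alternative size factors. The ratio adds 0.5 to each count. Fold intervals are exact (Clopper-Pearson, 95%).

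Genes were chosen, and lists and rules set, with earlier results of these data known. Named genes were the 6 highest of each biotype, 3 on each side of the minimum, the 6 largest folds in each direction, the 5 largest differences between quantifications in each direction, every Rnu gene, preset symbols and hosts. Families were formed at 95% identity, except that Rnu3a joined U3 by its symbol. Other names were added after values were seen. Alternatives covered scaling, filters, both count sources, TPM and each replicate alone.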

Additional observations from a re-analysis of the deposited data

How the results depend on the processing

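Of 58 alternative values, 49 stayed within 1.5 times a count or within 1 SD between replicates. For 8 of these, levels with 1 replicate left out, this holds by construction with 2 replicates and says nothing of stability. No count or median changed direction, but Gm24924 and Gm26244 did, being lower in replicate 1 by posterior mean counts. The following values moved. Genes at 1 or more in both replicates were 41 by TPM and 13 by CPM. The share of the 45 genes was 0.0154% of counts and 0.427% of TPM. Summed levels were 67.7 CPM and 3577 TPM for snRNA, 21.2 CPM and 400.8 TPM for snoRNA, and 64.8 CPM and 295.7 TPM for scaRNA genes. Genes called higher in replicate 1 were 2, but 0 with read-based counts and 0 with posterior mean counts. Genes called lower were 37, but 23 sequences once identical copies were summed, by construction of fewer units. Within 2-fold of the read-based value were 34 genes by count and 0 by TPM, for which the 2 tables use different effective lengths. Posterior means and sums over identical copies were added after seeing the data. Each replicate alone gave 36 to 48 genes by the count rule, 42 to 43 at 1 TPM, 0.00702% to 0.0237% of counts, 19.9 to 116 CPM for snRNA, 13.1 to 29.2 for snoRNA, 37.2 to 92.5 for scaRNA, and 37 to 38 genes within 2-fold. No paired analysis was possible because there is 1 group. Depth limits genes of a few counts, whose folds have wide intervals.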
